A study of Mus musculus with 30 samples.

Results

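Transcripts of 9 inflammatory cytokine genes were followed in mouse tumours after chemotherapy. The genes were Tnf, Il1a, Il1b, Il1rn, Il6, Il10, Il12b, Il18 and Il23a, taken as listed symbols and matched through the array's gene annotation to the deposited expression table. Each of the 9 matched 1 row, and they were 9 of 19938 genes with a named row. No filter on low values was applied, so all 9 were tested. The tumours were EL4, a T cell lymphoma line of the mouse, grown under the skin of the flank in mice whose titles read WT, with no strain stated. Mice of the antibiotic arm had received an antibiotic cocktail of unstated composition for 3 weeks, whereas those of the water arm, labelled H2O, were left without it. All mice were given 10 mg per kg oxaliplatin, a platinum drug that damages DNA, into the peritoneum 7 days after inoculation, and tumours were taken 0, 6 or 18 h later. This gave 6 groups of 5 arrays, with 30 arrays in all.

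Every tumour came from an oxaliplatin-treated mouse, and no tumour without the drug was taken at 6 or 18 h, so time after the drug and time of day or of tumour growth cannot be told apart. The labels do not say that each array came from a separate mouse, and p-values therefore measure the spread between arrays, part of which may be technical. The samples are numbered in blocks by group, so any effect of handling in that order cannot be told apart from the group. Values were log2 expression per array as deposited.

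Tumour necrosis factor, the product of Tnf, and interleukin-1, the product of Il1a and Il1b, are early alarm signals made mainly by macrophages, monocytes and neutrophils after microbial products or damaged cells are sensed. Both act through NF-kB, and both induce Il6 in immune cells and fibroblasts. IL-1 beta and IL-18 are made as inactive precursors that caspase-1 cuts inside inflammasomes, whereas Il1rn encodes the antagonist that occupies the IL-1 receptor without signalling. Il12b encodes the p40 chain shared by IL-12 and IL-23, Il23a encodes the p19 chain of IL-23, and Il10 encodes a cytokine that restrains macrophages. RNA levels on an array show neither cleavage nor secretion of these proteins.

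The promoters of 4 of the genes are shown because these genes carried the calls described below: Il1b, Il6 and Tnf were higher at 18 h in the water arm, and Il18 was lower with antibiotics. Each is the 250 bases before the transcription start, from RefSeq on GRCm38.p6, read 5′ to 3′ on the gene's strand: Il1b at chr2:129371140-129371389 on the minus strand, Il6 at chr5:30012864-30013113 on the plus strand, Tnf at chr17:35202008-35202257 on the minus strand and Il18 at chr9:50554450-50554699 on the plus strand. Capitals mark matches to a motif searched on both strands, namely the NF-kB consensus, the AP-1 motif TGANTCA or the C/EBP motif TTGNNCAA.
Il1b: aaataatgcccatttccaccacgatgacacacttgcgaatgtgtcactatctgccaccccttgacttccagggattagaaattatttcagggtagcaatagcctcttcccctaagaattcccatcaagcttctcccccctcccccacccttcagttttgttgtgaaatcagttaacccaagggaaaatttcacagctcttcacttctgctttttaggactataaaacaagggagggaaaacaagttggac
Il6: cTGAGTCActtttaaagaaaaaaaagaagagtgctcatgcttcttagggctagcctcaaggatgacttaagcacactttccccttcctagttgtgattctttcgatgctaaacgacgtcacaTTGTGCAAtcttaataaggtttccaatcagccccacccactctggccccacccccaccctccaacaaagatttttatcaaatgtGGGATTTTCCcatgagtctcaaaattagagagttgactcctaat
Tnf: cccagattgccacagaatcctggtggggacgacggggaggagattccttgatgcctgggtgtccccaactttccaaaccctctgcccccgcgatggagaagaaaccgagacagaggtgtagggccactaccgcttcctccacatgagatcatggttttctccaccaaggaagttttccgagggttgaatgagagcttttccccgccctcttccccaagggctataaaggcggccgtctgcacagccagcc
Il18: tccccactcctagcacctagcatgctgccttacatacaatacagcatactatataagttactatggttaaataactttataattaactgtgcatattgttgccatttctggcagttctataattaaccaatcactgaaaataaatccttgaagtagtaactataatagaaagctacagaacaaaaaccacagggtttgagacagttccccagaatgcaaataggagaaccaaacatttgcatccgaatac

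In this window the Il6 promoter held all 3 motifs, with the NF-kB match GGGATTTTCC 44 to 35 bases before the start, TTGTGCAA 128 to 121 bases before it and TGAGTCA 249 to 243 bases before it. Over 32851 starts of the RefSeq table, 7.25% of windows of the same length held the NF-kB consensus, 6.75% the AP-1 motif and 5.65% the C/EBP motif. These letters were not found in the windows of Il1b, Tnf and Il18. Il1a had the AP-1 motif 12 to 6 bases before its start and Il1rn had it 141 to 135 bases before 1 of its starts. Promoters were found for 7 of the 9 genes, all but Il10 and Il23a. A match describes the sequence and was not tied to any measured binding.

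T cell genes, the lineage of the lymphoma, had a median level of 10.95 over 8 measured markers, from Cd2 at 7.83 to Lat at 12.08. Array medians lay between 7.25 and 7.37. On 3 arrays of the 6 h groups, genes of skin or muscle stood apart: the keratinocyte list mean was 2.35 on water array 1 and 2.10 on antibiotic array 1, relative to the average array, and the mean of the skeletal muscle genes reached 1.58 for antibiotic array 5. The table gives no detection calls. As a rough floor, 23 genes restricted to organs such as liver or lung read 4.05 to 7.97, with a median of 6.17, so a value in that range does not by itself show that a transcript was present. All values of Il1a (5.69 to 7.39), Il6 (5.51 to 7.84), Il12b (6.11 to 6.87) and Il23a (5.90 to 6.51) lay inside it, as did all but the highest values of Il18 (6.30 to 8.14) and Il10 (7.34 to 8.36). Probes differ in response, and these ranges do not compare the genes with each other.

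**Figure D1:**
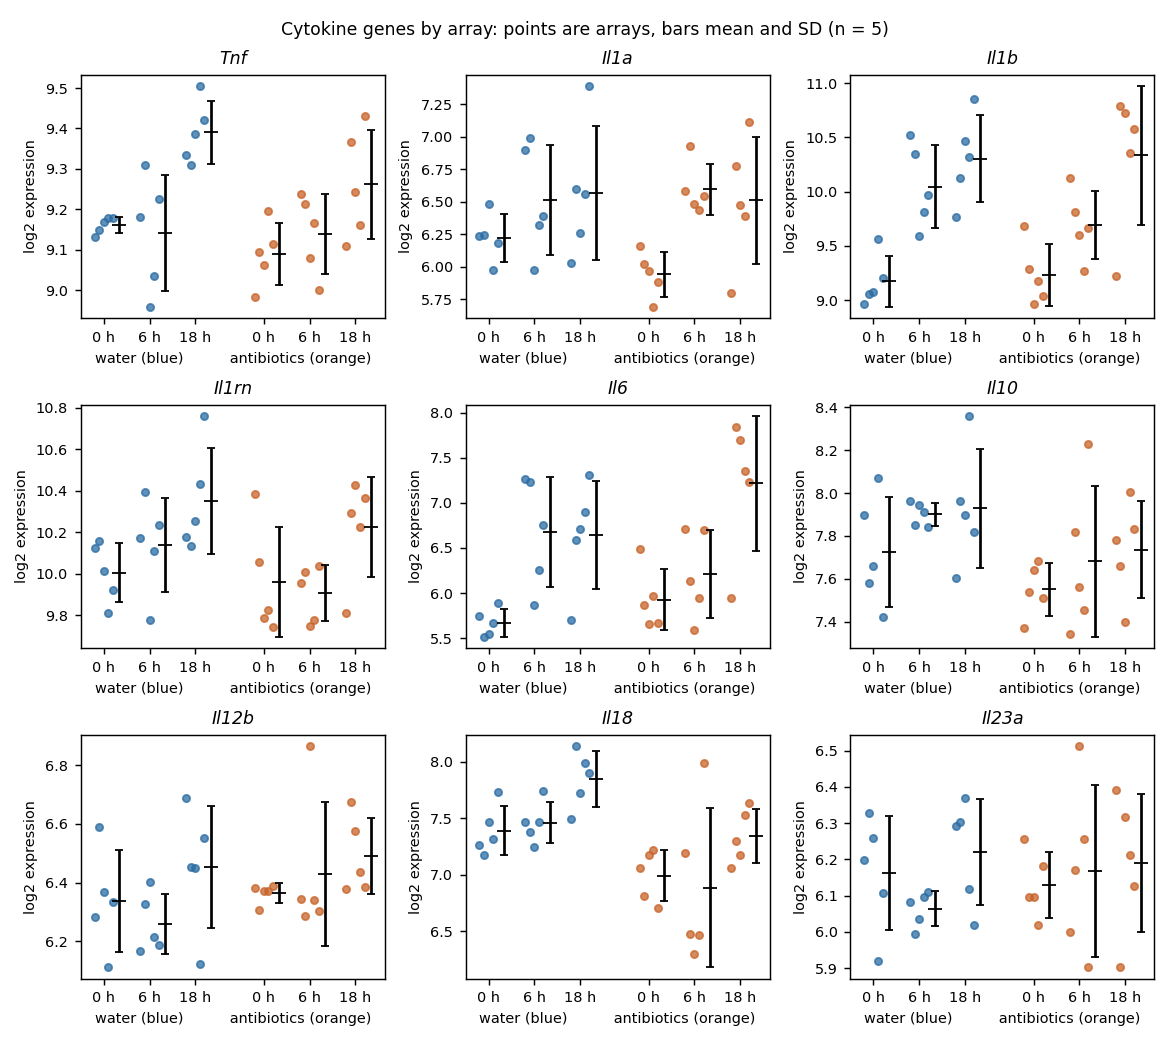
Expression of the 9 cytokine genes on every array, as log2 values on the vertical axis (a separate scale per gene), for water (blue) and antibiotic (orange) tumours at 0, 6 and 18 h. Points are arrays and bars give the mean and SD of 5 arrays; Il1b and Il6 have higher means at 18 h than at 0 h in both arms, and the orange Il18 means lie below the blue ones at each time.

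The question of the time course was how the tumours changed early after oxaliplatin. By 18 h, Il1b and Il6 had risen in both arms and Tnf in the water arm. In the water arm 3 of the 9 genes were higher at 18 h than at 0 h (limma, adjusted over all genes), where 14.1% of all genes were called in either direction and 6.18% were called higher. In the antibiotic arm 2 of the 9 were higher, against 1.22% of all genes called and 0.316% called higher. The median difference of the 9 genes was 0.35 in the water arm and 0.26 in the antibiotic arm, beside 0.012 over all genes in each. All 9 differences were above 0 in each arm. The members were picked as inflammatory genes with earlier results of these data known, so these counts describe them and test nothing about the group.

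Il1b, which encodes IL-1 beta, had the firmest change. In the water arm its log2 values were 8.96, 9.06, 9.08, 9.57 and 9.20 at 0 h, 10.52, 10.35, 9.59, 9.81 and 9.97 at 6 h, and 9.77, 10.12, 10.46, 10.32 and 10.86 at 18 h. Every water array at 18 h lay above every one at 0 h, a separation that 4.53% of all genes showed in this direction. Il1b rose by 1.13 ± 0.237 (SE) on the log2 scale, a fold of 2.19, with an adjusted p of 0.00138 in limma. The 6 h arrays had separated from 0 h by a narrow margin, 9.59 against 9.57, as they had for 2.99% of all genes, and the difference of 0.87 ± 0.237 (SE) had an adjusted p of 0.0691 in limma.

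In the antibiotic arm Il1b read 9.69, 9.29, 8.96, 9.18 and 9.04 at 0 h, 10.12, 9.81, 9.60, 9.27 and 9.66 at 6 h, and 9.22, 10.79, 10.72, 10.36 and 10.58 at 18 h. The groups at 0 and 18 h overlapped because of array 1 at 18 h, and the other arrays at 18 h were above all those at 0 h. Il1b rose by 1.10 ± 0.237 (SE) from 0 to 18 h, a fold of 2.15, with an adjusted p of 0.0131 in limma. Without array 1 at 18 h the difference was 1.38 (adjusted p = 0.000202, limma). The call was lost when array 2, 3 or 5 of that group was left out, with adjusted p up to 0.0587, and also in a fit to the compared groups only (adjusted p = 0.119, limma). At 6 h the difference from 0 h was 0.46 ± 0.237 (SE), adjusted p = 0.515 in limma.

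Il6 encodes interleukin-6, which drives STAT3 signalling and acute-phase genes. In the water arm its values were 5.74, 5.51, 5.54, 5.67 and 5.89 at 0 h, 7.26, 7.23, 5.86, 6.26 and 6.75 at 6 h, and 5.70, 6.59, 6.71, 6.90 and 7.31 at 18 h. At both later times 1 array stayed within the range of the 0 h group and the rest lay above it. From 0 to 18 h Il6 rose by 0.97 ± 0.312 (SE) on the log2 scale, with an adjusted p of 0.0351 in limma. No fold is given for Il6, since its 0 h means of 5.67 and 5.93 lay below the median of the organ-restricted genes and were not shown to be above background. From 0 to 6 h the difference was 1.00 ± 0.312 (SE), with an adjusted p of 0.137 in limma and an unadjusted p of 0.00336, beside an unadjusted 0.00426 at 18 h. The call at 18 h held in 22 of the 30 fits that left out 1 array, over which the adjusted p ran from 0.00936 to 0.104.

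In the antibiotic arm Il6 read 6.49, 5.87, 5.65, 5.96 and 5.67 at 0 h, 6.71, 6.13, 5.59, 5.95 and 6.70 at 6 h, and 5.95, 7.84, 7.70, 7.35 and 7.23 at 18 h. Array 1 at 18 h was again the low one, and the other arrays of that group exceeded the highest value at 0 h. Il6 rose by 1.29 ± 0.312 (SE) from 0 to 18 h on the log2 scale, with an adjusted p of 0.032 in limma, and by 1.60 (adjusted p = 0.0023, limma) without array 1. Leaving out 1 array kept the call in 22 of 30 fits, with adjusted p up to 0.118, and a fit to the compared groups only gave 0.12 in limma. Averaged over both arms, Il6 rose by 1.13 ± 0.220 (SE) with an adjusted p of 0.000611 in limma, and this call held in 30 of 30 such fits.

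Tnf moved less and later. In the water arm it read 9.13, 9.15, 9.17, 9.18 and 9.18 at 0 h, 9.18, 9.31, 8.96, 9.03 and 9.23 at 6 h, and 9.33, 9.31, 9.39, 9.51 and 9.42 at 18 h. The 5 arrays at 0 h were tightly bunched (SD 0.020), and all arrays at 18 h lay above them, a separation that 4.53% of all genes showed in this direction. Tnf rose by 0.23 ± 0.064 (SE) from 0 to 18 h, a fold of 1.17, with an adjusted p of 0.014 in limma. It also rose by 0.25 ± 0.064 (SE) from 6 to 18 h, with an adjusted p of 0.0137 in limma, the only call among the 9 genes in that comparison, in which 9.58% of all genes were called and 3.12% were called higher. In the antibiotic arm Tnf read 8.98, 9.09, 9.06, 9.19 and 9.12 at 0 h, 9.24, 9.21, 9.08, 9.17 and 9.00 at 6 h, and 9.11, 9.37, 9.24, 9.16 and 9.43 at 18 h. These groups overlapped, and the difference of 0.17 ± 0.064 (SE) between 18 and 0 h had an adjusted p of 0.228 in limma.

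Il1a encodes IL-1 alpha, which is active without cleavage and is released by dying cells. It read 6.23, 6.24, 6.48, 5.97 and 6.18 at 0 h in the water arm, 6.90, 6.99, 5.98, 6.32 and 6.39 at 6 h, and 6.03, 6.60, 6.26, 6.56 and 7.39 at 18 h. In the antibiotic arm it read 6.16, 6.02, 5.97, 5.69 and 5.88 at 0 h, 6.58, 6.93, 6.49, 6.44 and 6.54 at 6 h, and 5.80, 6.78, 6.47, 6.39 and 7.11 at 18 h. Within the arms only the antibiotic groups at 0 and 6 h did not overlap, a separation shown by 0.436% of all genes, yet their difference of 0.65 ± 0.215 (SE) had an adjusted p of 0.316 in limma. In that comparison 0 of the 9 genes and 0% of all genes were called, although 1 of the 9 and 2011 of all genes had an unadjusted p under 0.05.

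The average of both arms from 0 to 18 h used more arrays, and 5 of the 9 genes were then higher, where 14.9% of all genes were called and 6.81% were called higher. Il1a was among them, with a rise of 0.46 ± 0.152 (SE), adjusted p = 0.0401 in limma, which held in 16 of 30 fits leaving out 1 array and in 4 of 10 other settings. Il1rn, the receptor antagonist, rose by 0.31 ± 0.092 (SE), adjusted p = 0.023 in limma, and this held in 28 of 30 such fits. Its values ran from 9.81 to 10.16 at 0 h, 9.78 to 10.39 at 6 h and 10.14 to 10.76 at 18 h in the water arm. In the antibiotic arm they ran from 9.74 to 10.39, 9.75 to 10.04 and 9.81 to 10.43 at the same times. The Il1rn groups overlapped in each arm, and its separate differences of 0.35 (adjusted p = 0.0766, limma) and 0.26 (adjusted p = 0.459, limma) were not called.

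**Figure D2:**
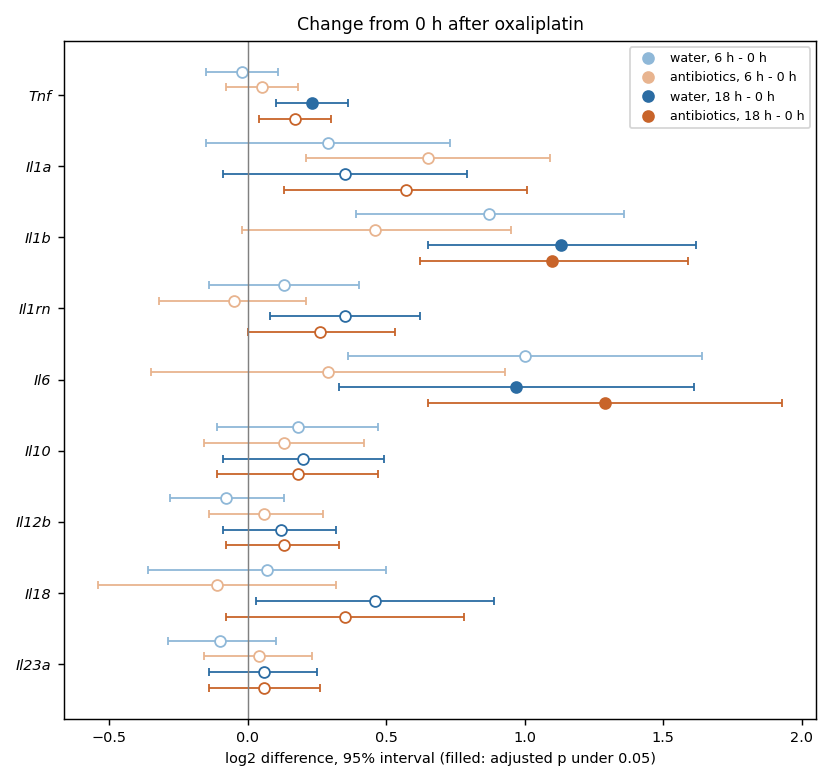
Differences from 0 h (horizontal axis, log2) for the 9 genes at 6 and 18 h in the water and antibiotic arms, with 95% intervals from limma; filled points passed an adjusted p of 0.05. Filled points are Tnf, Il1b and Il6 in water at 18 h and Il1b and Il6 with antibiotics at 18 h.

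The regulatory and p40 family genes did not pass in any time comparison. Il10 read 7.42 to 8.07 at 0 h and 7.61 to 8.36 at 18 h in water tumours, and 7.37 to 7.69 and 7.40 to 8.00 with antibiotics. Its differences were 0.20 ± 0.142 (SE) and 0.18 ± 0.142 (SE), with adjusted p of 0.414 and 0.749 in limma. Il12b differed by 0.12 ± 0.100 (SE) in water and 0.13 ± 0.100 (SE) with antibiotics, and Il23a by 0.06 ± 0.096 (SE) in each. The 95% interval for Il23a in water ran from -0.14 to 0.25, and for Il12b from -0.09 to 0.32. Both genes read at the level of the organ-restricted genes throughout, so small changes in them may not have been detectable.

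Among the 9 genes, the only call between neighbouring times was that of Tnf from 6 to 18 h in water. In the water arm 0 of the 9 genes were called from 0 to 6 h, where 1.11% of all genes were, and Il1b and Il6 were the 2 with an unadjusted p under 0.05, beside 2113 of 19938 genes. From 6 to 18 h in the antibiotic arm 0 of the 9 were called in limma, where 2.12% of all genes were, and 4 had an unadjusted p under 0.05, beside 3196 of 19938 genes. Among these Il6 differed by 1.00 ± 0.312 (SE), adjusted p = 0.0907, and Il1b by 0.64 ± 0.237 (SE), adjusted p = 0.158, both in limma. Without array 1 at 18 h both passed, Il6 at 1.32 (adjusted p = 0.0128, limma) and Il1b at 0.92 (adjusted p = 0.0134, limma). Leaving out 1 array at a time gave 0 to 2 of the 9 genes in this comparison. In a fit to the compared groups only, 0 of all genes were called.

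The second question was whether antibiotics changed these genes. At single times 0 of the 9 genes were called in limma: 0.0903% of all genes were called at 0 h, 3.77% at 6 h and 7.85% at 18 h. At an unadjusted p under 0.05 there were 0, 1 and 1 of the 9, Il18 at both later times, beside 1317, 3969 and 3984 of 19938 genes. Averaged over the 3 times, 1 of the 9 was lower with antibiotics, where 6.65% of all genes were called and 4.07% were called lower. That gene was Il18.

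Il18 encodes the precursor of IL-18, a caspase-1 substrate that prompts lymphocytes to make interferon gamma. In water tumours it read 7.26, 7.17, 7.46, 7.32 and 7.73 at 0 h, 7.47, 7.38, 7.24, 7.47 and 7.74 at 6 h, and 7.49, 8.14, 7.72, 7.99 and 7.90 at 18 h. With antibiotics it read 7.05, 6.81, 7.17, 7.22 and 6.70 at 0 h, 7.20, 6.47, 6.30, 6.47 and 7.98 at 6 h, and 7.06, 7.30, 7.17, 7.52 and 7.64 at 18 h. The antibiotic means were the lowest of the 6 group means, yet the arms overlapped at each time, and antibiotic array 5 at 6 h, the array with the muscle signal, read higher than any water array of that time.

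Over the 3 times Il18 was lower with antibiotics, with a difference of -0.49 ± 0.121 (SE) on the log2 scale and an adjusted p of 0.0114 in limma. No fold is given, since its group means of 6.88 to 7.85 lay below the highest organ-restricted mean of 7.97 and were not shown to be above background. The differences were -0.40 ± 0.209 (SE) at 0 h, -0.58 ± 0.209 (SE) at 6 h and -0.51 ± 0.209 (SE) at 18 h, with adjusted p of 0.805, 0.118 and 0.149 in limma. Without antibiotic array 5 at 6 h the values were -0.85 at 6 h (adjusted p = 0.00273, limma), -0.51 at 18 h (adjusted p = 0.0317, limma) and -0.58 over the 3 times (adjusted p = 7.4e-05, limma). Of the 30 fits that left out 1 array, only this 1 called Il18 at 6 h or at 18 h. Over those fits the adjusted p in limma reached 0.373 at 6 h and 0.332 at 18 h, while the call over the 3 times held in all 30. Without the 3 arrays with skin or muscle signal, a choice made after seeing the data, the difference at 6 h was -1.04 (adjusted p = 0.000655, limma) and over the 3 times -0.65 (adjusted p = 1.37e-05, limma).

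Some markers of macrophages and of other cells were lower with antibiotics too. Of 11 measured monocyte and macrophage genes 3 were lower with antibiotics over the 3 times, where 4.07% of all genes were called lower. Their differences were -0.39 for Cd68, -0.35 for Mpeg1 and -0.30 for Msr1. In the same comparison 2 of 6 B cell genes were lower (Cd22 at -0.34 and Cd79b at -0.16), 2 of 8 T cell genes (Cd5 at -0.14 and Cd3e at -0.09) and 1 of 8 mast cell genes (Fcer1a at -0.21), and their part in the Il18 difference was not tested. All values of Cd79b (7.17 to 7.96) and Fcer1a (5.21 to 6.26) lay inside the range of the organ-restricted genes, so neither was shown to be above background. The list medians were -0.039 for B cell, -0.039 for T cell and -0.066 for mast cell genes. The macrophage list's median difference was -0.275, beside 0.004 over all genes. The macrophage list mean, relative to all arrays, ran from -0.10 to 0.35, -0.13 to 0.17 and 0.10 to 0.56 in water tumours at 0, 6 and 18 h. It ran from -0.39 to 0.16, -0.41 to 0.25 and -0.49 to 0.19 with antibiotics. The list's genes had mean levels from 8.42 (Cd14) to 11.53 (Lyz2), above the highest organ-restricted mean of 7.97. With the list mean as a covariate, again chosen after seeing the data, the Il18 difference over the 3 times was -0.19 (adjusted p = 0.426, limma). In a whole tumour, fewer cells of a type and less RNA per cell cannot be told apart.

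**Figure D3:**
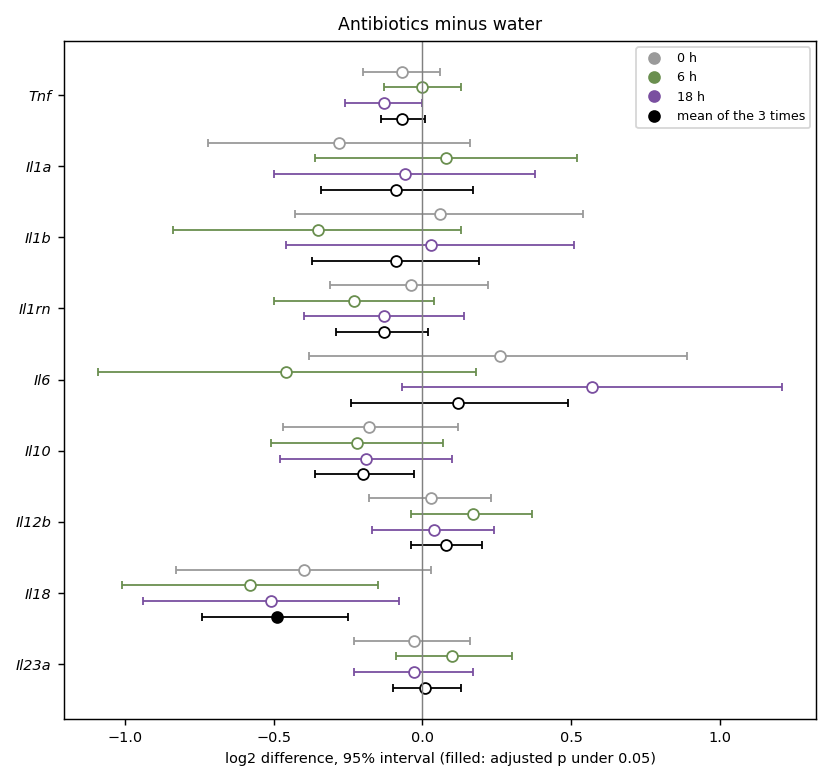
Antibiotic minus water differences (horizontal axis, log2) of the 9 genes for each time separately and for the 3 times averaged, with 95% intervals from limma; filled points passed an adjusted p of 0.05. Il18 averaged over the 3 times is the only filled point, at -0.49.

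For the other genes the intervals of the antibiotic effect show what these arrays could bound. Il6 differed by -0.46 (95% interval -1.09 to 0.18) at 6 h and by 0.57 (-0.07 to 1.21) at 18 h. Il1b differed by -0.35 (-0.84 to 0.13) at 6 h and by 0.03 (-0.46 to 0.51) at 18 h. Tnf, with the narrowest arrays, differed by -0.13 (-0.26 to 0.00) at 18 h. Il10 was at -0.20 (-0.36 to -0.03) over the 3 times, with an adjusted p of 0.171 in limma. With the macrophage list mean as a covariate, a setting added after seeing the data, Il6 was higher with antibiotics at 18 h by 1.19 (adjusted p = 0.00577, limma). The fit without it did not make this call (adjusted p = 0.326, limma). The list's own median difference at 18 h was -0.359, beside -0.006 over all genes, so the covariate was not balanced between the arms.

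Whether the time course itself differed between the arms was tested as an interaction, the antibiotic change minus the water change. At 6 h 0 of the 9 genes and 0% of all genes passed in limma, with 0 of the 9 and 1964 of all genes at an unadjusted p under 0.05. At 18 h 0 of the 9 and 0.105% of all genes passed, with 0 of the 9 and 1893 of all genes at an unadjusted p under 0.05. The widest member difference was Il6 at 6 h, -0.71 ± 0.441 (SE), adjusted p = 0.586, and it was 0.32 ± 0.441 (SE) at 18 h, adjusted p = 0.946, both in limma. For Il1b the interaction at 18 h was -0.03, with a 95% interval from -0.71 to 0.66. Tnf passed with water and not with antibiotics, but its interaction at 18 h was -0.06 ± 0.090 (SE), adjusted p = 0.952 in limma, so a difference between the arms was not shown.

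The order of the group means of each gene showed where these changes sat. For Il1b it ran, from low to high, water 0 h (9.17), antibiotic 0 h (9.23), antibiotic 6 h (9.69), water 6 h (10.05), water 18 h (10.31) and antibiotic 18 h (10.33). For Il6 it ran water 0 h (5.67), antibiotic 0 h (5.93), antibiotic 6 h (6.22), water 18 h (6.64), water 6 h (6.67) and antibiotic 18 h (7.22). For Il18 it ran antibiotic 6 h (6.88), antibiotic 0 h (6.99), antibiotic 18 h (7.34), water 0 h (7.39), water 6 h (7.46) and water 18 h (7.85). Neighbours in these orders overlapped in range for each of the 9 genes.

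Tumours of the same group also differed, and there Il1b and Il6 varied together. After each group's mean was removed, their Pearson r over 30 arrays was 0.88 (permutation p = 1e-05, the smallest that 100000 permutations give, adjusted p = 0.00036 over 36 pairs) and Spearman's rho was 0.84 (permutation p = 1e-05, adjusted p = 0.00036). Without the 2 arrays farthest from the median of Il1b, r was 0.82. Of the 36 pairs of cytokines, 9 passed, 8 of them positive. The pairs among Il1a, Il1b, Il1rn and Il6 made up most of these: r was 0.77 for Il1rn with Il6, 0.75 for Il1a with Il1rn, 0.71 for Il1a with Il1b, 0.70 for Il1b with Il1rn and 0.70 for Il1a with Il6. Without the 2 farthest arrays these were 0.70, 0.64, 0.57, 0.58 and 0.58.

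The remaining passing pairs were Il1a with Tnf (r = 0.56, and 0.43 without the 2 farthest arrays), Il6 with Il18 (0.49 and 0.43) and Il6 with Il23a (-0.53 and -0.48). Il1b with Il18, both caspase-1 substrates, had an r of 0.24 (permutation p = 0.19, adjusted p = 0.29) and a rho of 0.31 (permutation p = 0.1, adjusted p = 0.23). By Pearson's r Il10 passed with none of the others, and its rho with Il12b was -0.59 (permutation p = 0.0023, adjusted p = 0.017). All values of Il12b and Il23a lay inside the range of the organ-restricted genes, so neither was shown to be above background. Antibiotic 6 h array 3 had the highest value of both genes (6.87 and 6.51).

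**Figure D4:**
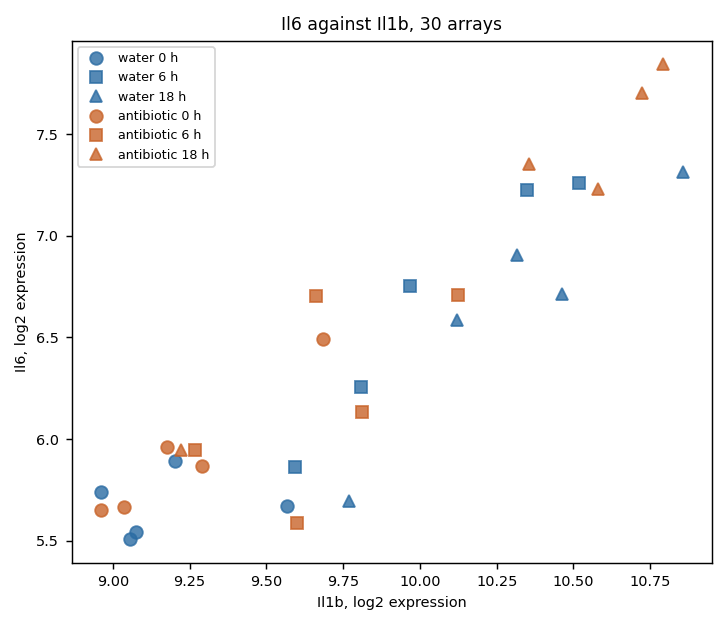
Il6 (vertical axis, log2) against Il1b (horizontal axis, log2) on the 30 arrays, with colour for the arm and shape for the time. The arrays form 1 rising band, and antibiotic 18 h array 1 (9.22 and 5.95) and water 18 h array 1 (9.77 and 5.70) lie at its low end, apart from the rest of their groups.

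The same within-group spread followed markers of several cell types, stromal as well as myeloid. Of 90 pairs of a cytokine with a marker list, 18 passed, all of them positive. Mean levels of the neutrophil genes ran from 5.32 to 8.76 with a median of 6.57, most of them inside the range of the organ-restricted genes. Il6 had an r of 0.80 with the neutrophil list mean (permutation p = 4e-05, adjusted p = 0.0018; rho 0.76, permutation p = 5e-05, adjusted p = 0.0022; 0.74 without the 2 farthest arrays). Its r with the macrophage list was 0.73 (permutation p = 2e-05, adjusted p = 0.0018; rho 0.78, permutation p = 2e-05, adjusted p = 0.0018; 0.65 without the 2 farthest). Il1b had an r of 0.76 with the neutrophil list (permutation p = 0.00016, adjusted p = 0.0036) and 0.56 with the macrophage list (permutation p = 0.0071, adjusted p = 0.038), or 0.64 and 0.38 without the 2 farthest arrays. Il18 had an r of 0.71 with the macrophage list (permutation p = 0.00012, adjusted p = 0.0036; rho 0.71; 0.62 without the 2 farthest) and of 0.65 with skeletal muscle (permutation p = 0.0088, adjusted p = 0.044; 0.42 without the 2 farthest). Il6 also passed with the fibroblast (r = 0.67), endothelium (0.67) and mast cell (0.61) lists, or 0.62, 0.59 and 0.52 without the 2 farthest arrays. Il1a passed with fibroblast (0.61) and endothelium (0.57), Il1b with both (0.59 and 0.59) and Il1rn with endothelium (0.61). T cell markers, which the lymphoma shares with any host T cells, passed with none of the 9 genes. The largest r was 0.45, with Il18 (permutation p = 0.051, adjusted p = 0.14). The T cell list mean varied little within groups (SD 0.04 to 0.08, against 0.12 to 0.28 for the macrophage list), so a correlation with it would be hard to see.

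Some of these markers were also higher at 18 h. None of the 11 measured neutrophil genes was called from 0 to 18 h in either arm alone. In the average of both arms 2 were higher, Ly6g by 0.31 and Mmp8 by 0.44, where 6.81% of all genes were called higher. Both read near the median of the organ-restricted genes, with means of 6.02 and 6.20, and were not shown to be above background. The neutrophil list mean ran from -0.06 to 0.01 at 0 h and 0.01 to 0.45 at 18 h in water tumours. Of the macrophage genes 3 were higher in water tumours, Mpeg1 by 0.64, Msr1 by 0.59 and Lyz2 by 0.47, and none with antibiotics. In water 3 of 8 endothelium, 3 of 8 mast cell and 2 of 9 fibroblast genes were higher as well, and none of these with antibiotics. Over all genes 6.18% were called higher in water and 0.316% with antibiotics. The interaction at 18 h was called for 0 genes of these lists, so a difference between the arms was not shown. The part of these markers in the cytokine changes was not tested. In the fit with the macrophage list mean as a covariate, added after seeing the data, Il1b at 18 h kept its call in both arms. There Il6 kept its call with antibiotics, and in the water arm it was 0.57 with an adjusted p of 0.0945 in limma. No fit held the neutrophil, endothelium, mast cell or fibroblast list means. Antibiotic 18 h array 1, low for Tnf, Il1a, Il1b, Il1rn, Il6 and Il18, stood apart in other ways too. It had the lowest macrophage (-0.49), neutrophil (-0.33), fibroblast (-0.33), endothelium (-0.28), dendritic cell (-0.19), mast cell (-0.18), T cell (-0.14), B cell (-0.07) and muscle (-0.75) list means of its group and the highest keratinocyte mean (0.61).

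Genes with the most similar pattern were taken by Pearson r over the 30 arrays, as a description in which group differences and array quality are shared. Il1b was most like Il6 (0.91), Egr1 (0.90), an immediate-early transcription factor, and Fgf7 (0.87), a fibroblast growth factor. Il6 was most like Il1b (0.91), F3 (0.86), which encodes tissue factor, and Fgf7 (0.85). Il1a was most like Ptgs2 (0.80), the inducible prostaglandin synthase, Rgs1 (0.79) and the neutrophil chemokine gene Cxcl2 (0.76). Il1rn was most like the C-type lectin genes Clec4d (0.89), Clec4e (0.88) and Clec4n (0.88). Il18 was most like Nxpe3 (0.89), Cd22 (0.89), which encodes a B cell surface lectin, and Snx2 (0.88), and Tnf like Nfu1 (0.81), Hcls1 (0.80) and 5430427O19Rik (0.78).

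Among the receptors of these cytokines, the clearest difference was in the IL-18 receptor. Il18r1, its ligand-binding chain, was lower with antibiotics, with differences of -0.64 ± 0.107 (SE) at 6 h (adjusted p = 0.00142, limma), -0.46 ± 0.107 (SE) at 18 h (adjusted p = 0.008, limma) and -0.52 ± 0.062 (SE) over the 3 times (adjusted p = 5.04e-06, limma). Il6st, the shared signalling chain gp130, differed by -0.12 ± 0.025 (SE) over the 3 times (adjusted p = 0.0038, limma), and Il10rb by -0.21 ± 0.048 (SE) (adjusted p = 0.00542, limma). These were 3 of 15 tested receptor genes, none being higher, where 4.07% of all genes were called lower. The median of the list was -0.097 beside 0.004 over all genes. From 0 to 18 h in water 2 of 15 rose, Il12rb1 by 0.22 and Sigirr, a brake on IL-1 family signalling, by 0.15, where 6.18% of all genes were called higher. Il18rap, the second IL-18 receptor chain, rose by 0.27 ± 0.081 (SE) in the average of both arms (adjusted p = 0.0218, limma). Il1r1 was not tested, and Il1r2, the decoy receptor, differed by 0.06 ± 0.192 (SE) in water.

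Several genes on the list of cytokine processing and the inflammasome rose with time in water tumours. Of 12 tested, 6 rose and 1 fell from 0 to 18 h, where 6.18% of all genes were called higher and 14.1% in either direction. The sensors Nlrp3 and Nlrc4 rose by 0.46 ± 0.150 (SE) and 0.33 ± 0.089 (SE), the adaptor Pycard by 0.27 ± 0.055 (SE), Casp1 itself by 0.30 ± 0.076 (SE), the pore-forming Gsdmd by 0.29 ± 0.058 (SE) and Txnip by 0.27 ± 0.080 (SE). The one that fell was Adam17, the enzyme that sheds Tnf, which decreased by 0.18 on the log2 scale. The smallest adjusted p in limma among them was 0.000947 for Gsdmd and the largest 0.0407 for Nlrp3. With antibiotics 1 of 12 rose, Nlrp3 by 0.61 ± 0.150 (SE) (adjusted p = 0.0386, limma), where 0.316% of all genes were called higher. Casp1 was at 0.29 with an adjusted p of 0.0584 in limma. All values of Nlrp3 (6.29 to 7.60) and Nlrc4 (5.87 to 6.63) lay inside the range of the organ-restricted genes, so neither was shown to be above background.

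At 18 h itself 3 of the 12 were lower with antibiotics, where 7.85% of all genes were called in either direction. Pycard had a difference of -0.26 ± 0.055 (SE) (adjusted p = 0.00397, limma), Gsdmd -0.28 ± 0.058 (SE) (adjusted p = 0.00346, limma) and Txnip -0.28 ± 0.080 (SE) (adjusted p = 0.0293, limma). Their interactions at 18 h did not pass, at -0.25 ± 0.078 (SE) for Pycard (adjusted p = 0.203, limma), -0.22 ± 0.082 (SE) for Gsdmd (adjusted p = 0.331, limma) and -0.34 ± 0.112 (SE) for Txnip (adjusted p = 0.247, limma).

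**Figure D5:**
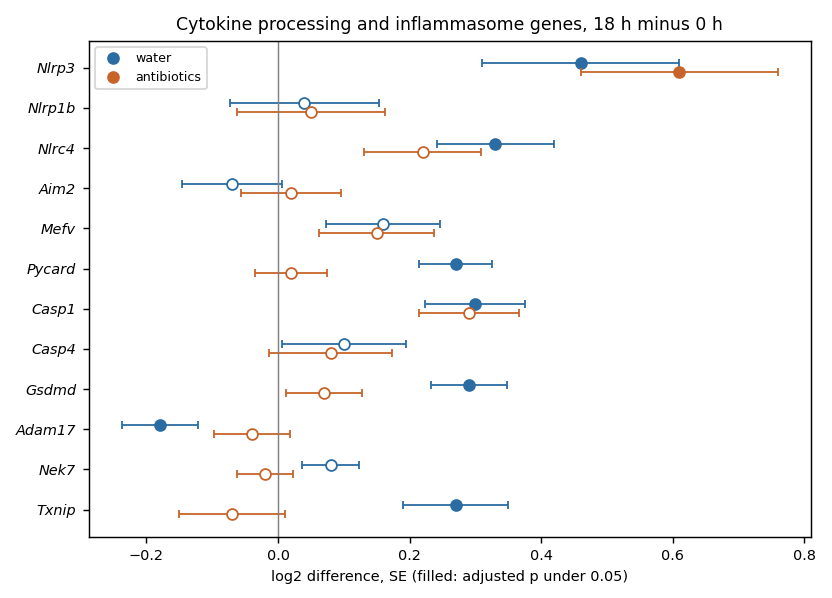
Differences between 18 and 0 h (horizontal axis, log2) for 12 cytokine processing and inflammasome genes in water (blue) and antibiotic (orange) tumours, with SE bars from limma; filled points passed an adjusted p of 0.05. Water has 7 filled points, 6 of them above 0, and antibiotics have 1, Nlrp3 at 0.61, a gene whose values lay inside the range of the organ-restricted genes.

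A further list held NF-kB subunits and feedback genes that NF-kB induces. Of 18 tested, 5 rose from 0 to 18 h in water, where 6.18% of all genes were called higher: Icam1, an adhesion molecule, by 0.64 ± 0.065 (SE) (adjusted p = 3.97e-07, limma), Tnfaip2 by 0.50, Nfkbie by 0.37, Traf1 by 0.31 and Zc3h12a, an RNase that degrades cytokine mRNAs such as Il6, by 0.24. With antibiotics 1 of 18 rose, Nfkbie by 0.29 (adjusted p = 0.0413, limma), where 0.316% of all genes were called higher. In the average of both arms 9 of 18 rose, where 6.81% of all genes were called higher. Among the 9 was Ptgs2, by 1.03 ± 0.249 (SE) (adjusted p = 0.00457, limma). Icam1 was lower with antibiotics at 18 h, with a difference of -0.32 ± 0.065 (SE) (adjusted p = 0.00357, limma), and its interaction was -0.40 ± 0.092 (SE) (adjusted p = 0.0663, limma).

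Targets downstream of the cytokines formed further lists. Of 12 genes induced by IL-6 and STAT3, 2 rose from 0 to 18 h in water and 0 with antibiotics, where 6.18% and 0.316% of all genes were called higher. The 2 were Hp, which encodes the acute-phase protein haptoglobin, by 0.64 ± 0.136 (SE) (adjusted p = 0.00174, limma) and Junb by 0.23 ± 0.069 (SE) (adjusted p = 0.0223, limma). Socs3, the feedback inhibitor of IL-6 signalling, differed by 0.02 ± 0.093 (SE) in water and by 0.07 ± 0.093 (SE) with antibiotics. Of 7 tested targets of IL-12, IL-18 and IL-23, 0 were called in any comparison, and Ifng, which encodes interferon gamma, differed by 0.69 ± 0.299 (SE) from 0 to 18 h in water (adjusted p = 0.133, limma). Its antibiotic difference over the 3 times was -0.04 ± 0.173 (SE), beside the -0.49 of Il18. This was the end of the list nearest 0: the 7 differences ran from -0.33 to -0.04, with a median of -0.130 beside 0.004 over all genes. Of 15 tested related cytokines, 2 rose from 0 to 18 h in water, where 6.18% of all genes were called higher: Csf1, the macrophage growth factor, by 0.37 and Ltb by 0.20. Over the 3 times 1 of the 15 was higher with antibiotics, Osm by 0.13 ± 0.037 (SE) (adjusted p = 0.0308, limma), where 6.65% of all genes were called in either direction.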

How the data were processed

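Each of 30 tumour samples was read on 1 Affymetrix mouse gene array. The authors deposited 1 table of log2 expression values, 28853 rows per array. Partek 6.6 appears, with no role given, in the submitters' processing notes, and summarisation, normalisation and genome build are not given in the sources used here. The log2 scale was read from the values. Values were used as deposited. Of the rows, 21775 had 1 gene symbol, 1578 several and 5500 none. Among rows of 1 symbol (998 genes had more than 1) the row with the highest mean was kept, giving 19938 genes. Groups came from the sample labels.

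limma 3.58.1 in R 4.3.3 fitted 6 group means to all arrays (24 residual degrees of freedom) and tested 13 comparisons with lmFit and eBayes, adjusted by Benjamini-Hochberg over all 19938 genes per comparison. A gene was called at an adjusted p under 0.05. Precision was limited by the number of arrays, with a median SD of residuals of 0.115. The 9 genes and the gene lists (7 pathway and 10 marker lists) were chosen with earlier results of these data known. From each pathway list the genes passing in a comparison were to be named, at most 4 per comparison by p, with up to 3 markers per marker list and, for each of the 9 that passed anywhere, the 3 genes most alike in pattern. Further list genes are named after their values were seen. Within-group correlations used 100000 permutations within groups. The fit was tested on simulated data. Alternatives comprised 8 planned settings (array medians subtracted, quantile normalisation, a trended robust prior, array weights, only the compared groups, the mean of all rows of a gene, only genes above the median, and an ordinary linear model), an exact permutation test per gene, 30 that left out 1 array and 3 added after seeing the data.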

Additional observations from a re-analysis of the deposited data

Results flagged for a closer look

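In each group of 5 arrays the extreme value of a gene was set against the gap that a single stray array would leave. Of 54 such groups 4 stood out, where chance gives about 1 in 20. Il1b on antibiotic 18 h array 1 read 9.22, with the other arrays at 10.36 to 10.79. Il1a on antibiotic 6 h array 2 read 6.93, with the others at 6.44 to 6.58. Il12b on antibiotic 6 h array 3 read 6.87, with the others at 6.29 to 6.35. Il12b on antibiotic 0 h array 2 read 6.31, with the others at 6.37 to 6.39, a gap that is small in absolute terms. None of these is one of the 3 arrays with skin or muscle signal. Antibiotic 6 h array 3 had the lowest weight of all arrays in the fit with array weights, 0.24. It also had the highest mean of the organ-restricted genes, 0.23 relative to the average array, and the highest Il23a value, 6.51. The other flagged arrays had weights of 0.94 (antibiotic 18 h array 1), 1.40 (antibiotic 6 h array 2) and 1.32 (antibiotic 0 h array 2). The part of such array-wide differences in the flagged values was not tested.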

How the results depend on the processing

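No paired analysis was possible because samples were numbered consecutively over all groups, which therefore share no number. Over 117 gene differences and 41 settings none turned a called direction; 121 of 4745 values changed sign, none of them called before or after. The calls of Tnf and Il1b in the water arm, of Il1b and Il6 in the average of both arms at 18 h and of Il18 over the 3 times held in all 30 fits that left out 1 array, and of these only Il18 lost its call in another setting, with the macrophage list mean as a covariate.

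The number of the 9 genes called moved as follows. For antibiotics against water at 6 h it was 1 rather than 0 with array weights, without the arrays with skin or muscle signal and with skin and muscle covariates (Il18 each time). At 18 h it was 1 with array weights and without those arrays (Il18), and 1 with the macrophage covariate (Il6). Over the 3 times it was 2 with array weights (Il18 and Il10). From 0 to 6 h in water it was 2 with array weights or the macrophage covariate (Il1b and Il6), and 1 with only the compared groups or only genes above the median of all rows (Il1b, 5 of the 9 tested). From 6 to 18 h in water it was 2 with array weights (Tnf and Il18). From 0 to 18 h with antibiotics it was 0 with only the compared groups. It was 1 with genes above the median, where Il6 was left out of the fit, and 1 with an ordinary linear model. From 6 to 18 h with antibiotics it was 2 without the skin or muscle arrays or with their covariates (Il6 and Il18). For the average of both arms at 18 h it was 3 with the macrophage covariate. Apart from genes left out of a fit, the cause was not tested. Leaving out 1 array gave 0 to 1 genes for antibiotics against water at 6 h and at 18 h, 1 to 2 over the 3 times, 0 to 1 from 0 to 6 h and 2 to 4 from 0 to 18 h in water, 0 to 2 from 0 to 18 h and from 6 to 18 h with antibiotics, and 3 to 6 for the average of both arms. Over all genes the counts moved more: 192 to 1420 around 752 for antibiotics against water at 6 h and 94 to 346 around 244 from 0 to 18 h with antibiotics, so adjusted p-values near the threshold moved with the array left out. Under the other settings these counts ran from 9 to 1441 and from 46 to 569, and from 0 to 911 around 422 from 6 to 18 h with antibiotics, where the lowest for antibiotics against water at 6 h and from 6 to 18 h came with only the compared groups. The shares of all genes called that stand beside the counts of the 9 move with them. The array median and quantile renormalisations changed no count of the 9 by over 1.5 times. With 5 arrays against 5 an exact permutation test has 252 arrangements and a smallest p of 0.0079.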
